A study of Mus musculus with 262 samples.

Results

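This section follows 10 genes of the Notch pathway through every deposited table: the receptor genes Notch1, Notch2 and Notch3, the ligand genes Jag1, Jag2, Dll1 and Dll4, the ubiquitin ligase gene Mib1, and the target genes Hes1 and Hey1. They were chosen by symbol, and all 10 were found among the 47069 genes of the TPM tables and among the 24111 genes of the count table. The data came from kidneys of 2-month-old male mice. Single cells, c-Kit and DBA samples and tubules were from strain C57BL/6, and the GFP samples were from the strain Atp6v1b1GFP, named for a subunit gene of the proton pump of intercalated cells. No group carried a treatment or a deletion that the labels name.

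Notch receptors sit in the membrane of a cell and bind ligands displayed by its neighbour. Binding leads to cleavage of the receptor, and the freed intracellular part joins the DNA-binding protein RBPJ in the nucleus to switch on targets such as the Hes and Hey repressor genes. Mib1 adds ubiquitin to the ligands, a step that the ligand-bearing cell needs to send the signal. In the kidney collecting duct, Notch signalling is known for favouring the fate of principal cells, which reabsorb salt and water, over that of intercalated cells, which handle acid and base.

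The 262 samples comprised single cells, 8 bulk samples of sorted cells and 19 microdissected tubules. The authors' titles named 87 cells as type A intercalated (acid-secreting), 23 as type B intercalated (bicarbonate-secreting), 74 as principal, 19 as proximal tubule and 32 as non-epithelial. The bulk samples were 2 sorted with an antibody to c-Kit, 2 sorted on DBA (a plant lectin), and 2 GFP-positive and 2 GFP-negative samples. The sort labels of single cells varied within and between types. Among principal cells, 37 had the label DBA and 37 DBA + c-Kit. Type A cells had DBA + c-Kit (60), c-Kit (25) or DBA (2). Type B cells had PNA (17), c-Kit (4), DBA (1) or DBA + c-Kit (1). Proximal tubule cells had DBA + c-Kit (9), DBA (8) or c-Kit (2). Non-epithelial cells had DBA + c-Kit (18), c-Kit (10) or DBA (4). The part of the sort in differences between types was not tested. The tubules were 11 cortical collecting ducts (CCD), which hold principal and intercalated cells, and 8 cortical thick ascending limbs (cTAL), the segment that dilutes the urine. The labels name no animal for any cell or sample, so cells of a type are given with no test, and p-values between bulk samples or tubules measure the spread between these samples, which may be technical. Fewer cells of a type and less RNA per cell cannot be told apart in bulk samples or tubules. All values in TPM (transcript shares that sum to 1000000 in a sample) are scaled for gene length within a sample, and their depth is unknown.

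The labelled cell types were checked against marker genes. Of the cells in each type, the markers of that type had the largest summed level of 4 lists (principal, intercalated, proximal tubule and leukocyte) in 79 of 87 type A, 23 of 23 type B, 72 of 74 principal, 10 of 19 proximal tubule and 32 of 32 non-epithelial cells. The non-epithelial cells carried leukocyte markers at a median sum of 31732 TPM, whereas 5 of 8 endothelial and 6 of 9 mural and fibroblast markers were detected in none of them. The deposited single-cell values included many traces: 6.97% of all values lay between 0 and 1 TPM, against 6.01% at 1 TPM or more. Detection therefore means at least 1 TPM below. At that threshold the leukocyte gene Ptprc was found in 30 of 32 non-epithelial cells and 12 of 87 type A cells, and the principal cell gene Aqp2 was found in 58 of 87 type A and 15 of 32 non-epithelial cells, so detection alone does not show that a cell expresses a gene.

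Promoter sequence is shown for Notch2, the receptor gene found in most single cells, and for Jag1, Dll1 and Dll4, the ligand genes called different between sorted fractions or tubules in the results that follow. A RefSeq promoter window (GRCm38.p6) was read for 7 of the 10 genes. The 4 below are printed 5′ to 3′ on the gene's own strand. Those of Notch2, Jag1 and Dll4 run up to the gene start given below. That of Dll1 stops at 15376933, short of the gene start at 15376872, and the bases between were not searched. Capitals mark an N-box, the letters CACNAG on either strand, which Hes repressors are known to bind; TGGGAA, the core letters bound by RBPJ, was also searched for on either strand.
Notch2, chr3:98013288-98013526, plus strand: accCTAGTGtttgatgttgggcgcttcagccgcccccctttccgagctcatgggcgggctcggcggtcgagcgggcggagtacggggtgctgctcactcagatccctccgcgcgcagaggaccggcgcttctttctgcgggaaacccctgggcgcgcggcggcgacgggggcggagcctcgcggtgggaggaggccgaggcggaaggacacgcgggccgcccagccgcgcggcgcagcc
Jag1, chr2:137116645-137116770, minus strand: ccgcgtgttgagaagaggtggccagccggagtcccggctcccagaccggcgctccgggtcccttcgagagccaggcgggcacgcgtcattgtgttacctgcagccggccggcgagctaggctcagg
Dll1, chr17:15376933-15377182, minus strand: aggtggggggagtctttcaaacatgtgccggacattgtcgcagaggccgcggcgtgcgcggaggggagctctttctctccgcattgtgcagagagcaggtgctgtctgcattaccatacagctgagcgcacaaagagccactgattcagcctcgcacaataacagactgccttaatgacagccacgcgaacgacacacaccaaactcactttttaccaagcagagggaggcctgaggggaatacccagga
Dll4, chr2:119325534-119325783, plus strand: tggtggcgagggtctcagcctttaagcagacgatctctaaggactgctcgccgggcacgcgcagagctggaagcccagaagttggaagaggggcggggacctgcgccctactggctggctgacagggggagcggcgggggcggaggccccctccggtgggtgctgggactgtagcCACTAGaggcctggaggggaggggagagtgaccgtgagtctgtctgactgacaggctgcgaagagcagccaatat
The Notch2 and Dll4 windows each held 1 N-box, and the other two held none. The RBPJ core was in none of the 4. Among 32851 RefSeq promoter windows of 250 bases, 36.7% held an N-box and 21.6% the RBPJ core; the Notch2 window has 239 bases and the Jag1 window 126, so these shares are not matched to them in length. The genes themselves are protein-coding and lie at 98013527 to 98150361 on chromosome 3 (Notch2), 137081456 to 137116644 on chromosome 2 (Jag1), 15367354 to 15376872 on chromosome 17 (Dll1) and 119325784 to 119335962 on chromosome 2 (Dll4) of GRCm38.

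Among the receptor genes, Notch2 was the one found widely in single cells. It was detected in 131 cells (55.7% of all), Notch1 in 19 and Notch3 in 4. In principal cells Notch2 ran from 0 to 239 TPM, with a median of 58.9 TPM and quartiles of 25.1 and 96.6 TPM, and 91.9% of the cells had it (exact Clopper-Pearson 95% interval 83.2% to 97.0%, counting error only, as for all intervals on shares). Non-epithelial cells followed, with a median of 45.1 TPM and 29 of 32 cells positive, and then proximal tubule cells, with 24.9 TPM and 13 of 19. Their middle ranges overlap that of the principal cells, so the order of these 3 types by median is not set apart by the spread between cells. In the 13 proximal tubule cells with Notch2, the 6 principal cell markers summed to a median of 1622 TPM. In the 6 without it the median sum was 64.8 TPM, and the part of principal cell RNA in this was not tested.

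Intercalated cells were at the low end for Notch2. In type A cells the median was 0.10 TPM and the upper quartile 0.49 TPM; in type B cells the median was 0 and the upper quartile 0.035 TPM. The 17 type A cells with Notch2 (19.5%, interval 11.8% to 29.4%) had a median of 5.60 TPM, below the 64.9 TPM of the 68 principal cells with it. The other 70 type A cells all had a trace, with a median of 0.075 TPM and none at 0, whereas 15 of 23 type B cells stood at 0. Genes found per cell were alike in the 17 type A cells with Notch2 and the 70 without, at medians of 2704 and 2708.5. The 6 principal cell markers summed to a median of 610 TPM in the former and 84.7 TPM in the latter, and the 12 intercalated markers to 3140 and 5562 TPM; the part of other cells' RNA in these 17 was not tested.

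Notch1 and Notch3 were scattered. Notch1 was detected in 7 principal, 5 non-epithelial, 4 type A, 2 type B and 1 proximal tubule cell, with the highest value, 101 TPM, in a principal cell. Notch3 was detected in 3 principal cells, at 11.5, 11.6 and 37.7 TPM, and in 1 non-epithelial cell at 1.97 TPM. At such counts the intervals of the types overlap, and no order of types can be read for either gene.

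The ligand genes were led by Jag1, found in 169 cells (71.9% of all). Type A cells had a median of 186 TPM, with quartiles of 92.6 and 346 TPM and detection in 77 of 87 (88.5%, interval 79.9% to 94.3%). Type B cells had a median of 34.8 TPM with quartiles of 0.14 and 218 TPM, and principal cells a median of 27.9 TPM with quartiles of 0.46 and 140 TPM. Both of those types were split: 16 of 23 type B and 45 of 74 principal cells had Jag1, and those cells had medians of 126 and 112 TPM, close to each other and below the 217 TPM of the type A cells with it. By the mean, types A and B were close in Jag1, at 254 and 245 TPM, and the highest single cell, at 1631 TPM, was of type B. Without the highest cell of each type the means were 246 and 182 TPM. The mean of log2(TPM + 1) was 6.82 in type A and 4.82 in type B cells. The middle ranges of the 2 types overlap. Proximal tubule cells, at a median of 1.77 TPM, and non-epithelial cells, at 3.09 TPM, stood lowest, although 13 of 19 and 18 of 32 of them passed 1 TPM.

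The Delta-like ligand genes were rare in single cells. Dll4 was detected in 8 type A cells, at 2.89 to 171 TPM, and in 1 type B, 1 principal and 1 proximal tubule cell; none of the 32 non-epithelial cells had it. Of the 8 type A cells with Dll4, 7 also had Jag1. Dll1 was detected in 4 principal cells, at 10.9, 28.5, 64.0 and 809 TPM, in 3 type B cells, at 9.40, 28.7 and 69.0 TPM, and in 2 type A cells, at 1.43 and 3.50 TPM. The principal cell at 809 TPM alone carried most of the principal mean of 12.4 TPM: by the mean of log2(TPM + 1), type B cells were highest for Dll1 instead (0.63 against 0.37). Jag2 was at 0 in every cell of all 5 types. Taking a limit of 3 cells for a count of 0, this allows up to 1.28% of cells to reach 1 TPM, which limits detection and not expression; Jag2 was at 2.51 to 3.63 TPM in the c-Kit and DBA bulk samples.

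Mib1 and Hes1 were broader. Mib1 reached the threshold in 48 of 74 principal cells (64.9%, interval 52.9% to 75.6%), with a median of 85.8 TPM over all principal cells. In the other 4 types the median was between 0.03 and 0.80 TPM, but these types were split. Mib1 was detected in 43 of 87 type A, 15 of 32 non-epithelial, 7 of 19 proximal tubule and 6 of 23 type B cells. The medians in those cells were 52.0, 140, 64.5 and 37.2 TPM, against 243 TPM in the principal cells with it. Hes1 was detected in 67 of 74 principal, 20 of 23 type B and 75 of 87 type A cells. Over all cells of these types its medians were 28.4, 27.0 and 13.4 TPM. The upper quartile of Hes1 was 28.7 TPM in type A cells but 88.0 TPM in principal and 107 TPM in type B cells. Proximal tubule and non-epithelial cells had medians of 3.10 and 1.11 TPM. The other target gene, Hey1, passed 1 TPM in no cell of any type.

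**Figure D1:**
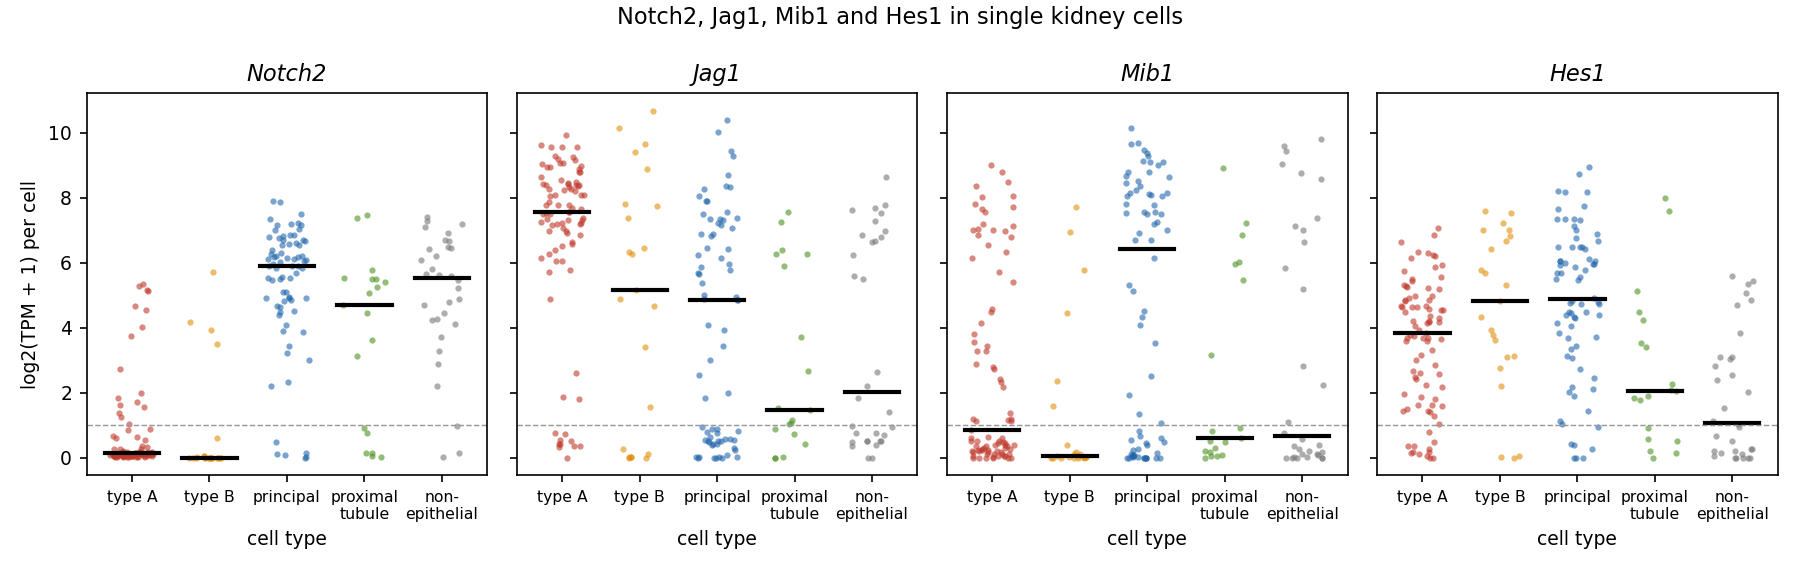
Level of Notch2, Jag1, Mib1 and Hes1 in each single cell, as log2(TPM + 1), by the authors' cell type; points are cells, black lines medians, and the dashed line is 1 TPM. Notch2 is high in principal, proximal tubule and non-epithelial cells and low in both intercalated types, whereas Jag1 has its highest median in type A cells and is split into high and low cells in type B and principal cells.

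Receptor and ligand genes were often found in the same cell. With Notch2 as receptor and Jag1 as ligand, 43 of 74 principal cells had both (58.1%, interval 46.1% to 69.5%), 25 had Notch2 without Jag1, 2 had Jag1 without Notch2 and 4 had neither. Of 87 type A cells, 65 had Jag1 without Notch2, 12 had both (13.8%, interval 7.34% to 22.9%), 5 had Notch2 without Jag1 and 5 had neither. Of 23 type B cells, 12 had Jag1 alone (52.2%), 4 had both (17.4%, interval 4.95% to 38.8%), none had Notch2 alone and 7 had neither (30.4%, against 5.75% of type A cells). Both genes were found in 9 of 19 proximal tubule and 16 of 32 non-epithelial cells. The product of the shares of cells with Notch2 and with Jag1 gives 41.4 principal, 15.0 type A, 2.78 type B, 8.89 proximal tubule and 16.3 non-epithelial cells with both. With Notch2 in 68 of 74 principal and 29 of 32 non-epithelial cells, these counts could lie only near the product, which therefore shows little there. In type A cells Jag1 was found in 12 of the 17 cells with Notch2 and in 65 of the 70 without. In type B cells it was found in 4 of 4 and in 12 of 19. These contrasts go opposite ways and were not tested. The types thus differed in the shares of the single genes, and no pairing of Notch2 with Jag1 beyond those shares is read from these counts.

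**Figure D2:**
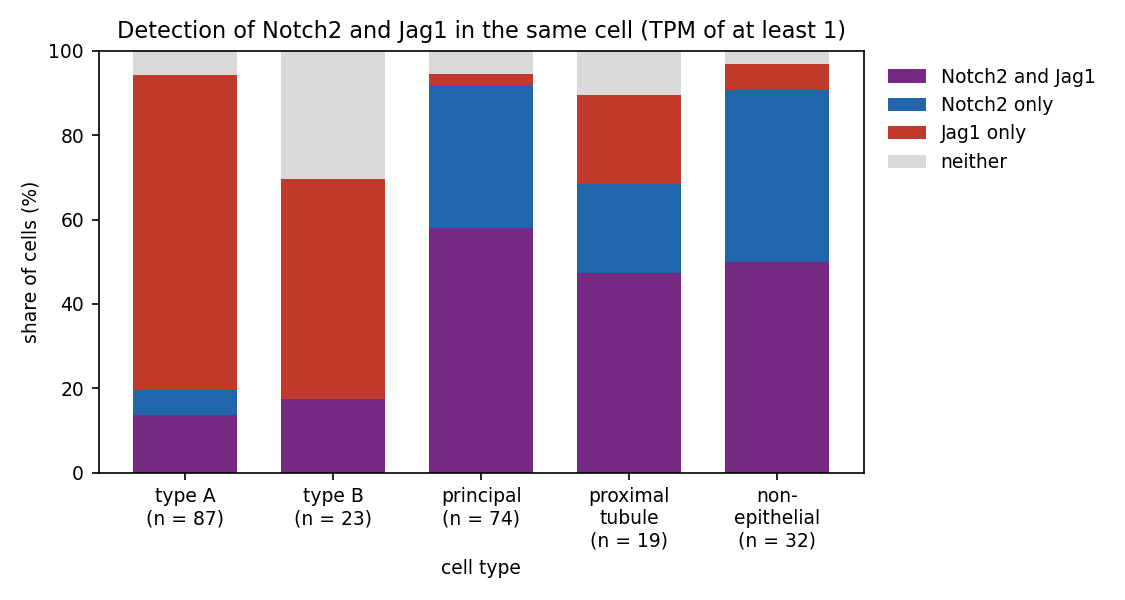
Share of cells of each type in which Notch2, Jag1, both or neither reached 1 TPM. Cells with both make up 58.1% of principal cells and 13.8% of type A cells, and cells with Jag1 alone make up 74.7% of type A cells and 2.70% of principal cells.

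The count of cells with both genes depends on the detection threshold. Counting any value above 0, 93.2% of principal and 98.9% of type A cells had both, because the traces of Notch2 in type A cells and of Jag1 in principal cells then count. At 10 TPM the shares were 47.3% and 6.90%. With only the cells whose own marker list had the largest sum, 42 of 72 principal cells (58.3%) and 9 of 79 type A cells (11.4%) had both. Among principal cells, those with Jag1 had more genes (median 3005) than those without (2757), and their 12 intercalated markers summed to a median of 180 TPM against 82.1 TPM; the part of depth and of intercalated cell RNA in this was not tested.

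In the principal cells that had both, the medians were 58.4 TPM for Notch2 and 112 TPM for Jag1. In the 12 type A cells with both, Notch2 was at a median of 9.04 TPM and Jag1 at 138 TPM. Within principal cells the levels of Notch2 and Jag1, as log2(TPM + 1), had a Pearson r of 0.02 over 74 cells. Within type A cells it was -0.18 over 87 cells. The cells of each type came from more than 1 sort, and these values are descriptions.

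Over all 12 receptor and ligand pairs, 92 cells had at least 1 receptor and at least 1 ligand gene (39.1% of all, interval 32.9% to 45.7%). By type these were 46 of 74 principal, 17 of 32 non-epithelial, 15 of 87 type A, 9 of 19 proximal tubule and 5 of 23 type B cells. Pairs other than Notch2 with Jag1 were few: Notch1 with Jag1 was found in 5 principal, 5 non-epithelial, 4 type A, 2 type B and 1 proximal tubule cell, and Notch2 with Dll1 in 4 principal cells and 1 type B cell. All 4 principal cells with Dll1 therefore had Notch2 as well, and 3 of the 4 lacked Jag1. More than 1 receptor gene was found in 18 cells, of which 10 were principal, 5 non-epithelial and 1 each type A, type B and proximal tubule. More than 1 ligand gene was found in 14 cells, of which 7 were type A, 4 type B, 2 principal and 1 proximal tubule.

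Hes1 was found in 44 of the 46 principal cells with a receptor and a ligand gene, against 67 of all 74. It was found in 5 of the 6 principal cells without Notch2, with a median of 48.6 TPM, compared with 62 of 68 and a median of 27.2 TPM in those with Notch2. In type A cells all 17 with Notch2 had it, with a median of 24.5 TPM, as did 58 of the 70 without, with a median of 13.0 TPM. Each median is over all cells with or without Notch2, whether or not Hes1 was detected. The cells of a type come from unnamed animals, so these differences have no test.

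By Pearson's r of log2(TPM + 1) over all cells, among 7565 genes detected in at least 10% of them, the genes most like Notch2 were Tmsb4x (0.62), Ahnak (0.59) and Calb1 (0.58). Those most like Jag1 were Pam (0.58), Kit (0.50), which encodes the receptor used in the c-Kit sort, and Adgrf5 (0.49). Mib1 was most like Adh1 (0.39), Fxyd4 (0.38) and Aqp3 (0.38), the latter a water channel gene of principal cells. Hes1 was most like Mal (0.42), Atp1b1 (0.40) and Tfcp2l1 (0.39), a transcription factor gene of the collecting duct. The points mix cell types and sorts, and the 6 other genes were found in too few cells to be ranked.

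A list of 46 other Notch pathway genes was read in the same cells. Of these, 6 were detected in no cell and 22 in at least 10% of cells, and the highest type mean fell in non-epithelial cells for 16 of the list, in type B for 8, in principal for 7, in type A for 5 and in proximal tubule cells for 4. The genes whose highest type stood farthest above the second were Hey2, a target gene (a mean of 6.06 TPM in type B and of 0.0024 TPM in principal cells), Maml2 (63.2 TPM in non-epithelial against 16.3 TPM in principal cells) and Maml1 (3.71 TPM in principal against 0.53 TPM in proximal tubule cells), the latter 2 encoding coactivators of the RBPJ complex. Hey2 was found in 2 type B cells only, so its mean rests on them. The principal mean of Maml1 rests largely on 1 cell at 236 TPM and was 0.53 TPM without it. The proximal tubule mean was 0.53 TPM with all cells and 0.013 TPM without its highest cell, at 9.75 TPM. Without their highest cell the means of Maml2 were 43.0 TPM in non-epithelial and 10.5 TPM in principal cells.

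Notch2 was lower and Jag1 higher in the c-Kit samples than in the DBA samples. Intercalated markers were high in the c-Kit samples (the 4 type A markers summed to 3059 and 3097 TPM, against 61.1 and 73.1 TPM in DBA) and principal markers in the DBA samples (22287 and 24841 TPM against 2519 and 3392 TPM). Notch2 was at 6.80 and 4.65 TPM in the c-Kit samples and at 21.3 and 18.0 TPM in the DBA samples. The groups did not overlap, and on the log2(TPM + 1) scale Notch2 fell by 1.63 in c-Kit relative to DBA (SE 0.19, limma adjusted p = 0.000694). Jag1, at 30.2 and 30.2 TPM against 15.1 and 16.6 TPM, was higher in c-Kit by 0.89 (SE 0.10, limma adjusted p = 0.000596).

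Of the other receptor genes, Notch3 fell in c-Kit and Notch1 did not pass the test. Notch3 was at 1.48 and 2.49 TPM in c-Kit and 6.35 and 6.78 TPM in DBA samples, and fell by 1.36 (SE 0.22, limma adjusted p = 0.00306); without the second DBA sample it was -1.32 with limma adjusted p = 0.0576. Notch1 was at 5.80 and 3.94 TPM against 4.59 and 5.47 TPM, with overlapping groups and a difference of -0.05 (SE 0.21).

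Among the ligand genes, Dll4 differed most between the sorted fractions. It was at 24.2 and 27.3 TPM in c-Kit and at 6.59 and 6.37 TPM in DBA samples, higher by 1.84 in c-Kit (SE 0.12, limma adjusted p = 6.72e-05). Dll4 is also known as a gene of endothelial cells; the 8 endothelial markers summed to 266 and 270 TPM in c-Kit and to 347 and 402 TPM in DBA samples, and their part in the Dll4 values was not tested. Dll1, at 19.6 and 16.6 TPM against 16.6 and 17.6 TPM, differed by 0.07 (SE 0.12), and Jag2, at 2.81 and 2.51 TPM against 2.87 and 3.63 TPM, by -0.21 (SE 0.20); neither passed the test.

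The ligase and target genes fell in the c-Kit fraction. Hes1 was at 84.6 and 82.7 TPM in c-Kit and 144 and 141 TPM in DBA samples and fell by 0.76 on the log2 scale (SE 0.06, limma adjusted p = 0.00015). Mib1, at 9.18 and 7.19 TPM against 17.5 and 14.6 TPM, fell by 0.90 (SE 0.16, limma adjusted p = 0.00472), though without the first DBA sample it was -0.77 with limma adjusted p = 0.0798. Hey1, at 0.36 and 0.17 TPM against 1.49 and 2.09 TPM, fell by 1.14 (SE 0.26, limma adjusted p = 0.0132), a gene that no single cell showed. Hey1 reached the filter of a mean of 1 TPM through the DBA samples alone, so it could be called only as lower in c-Kit. With 1 DBA sample left out it fell below the filter and was not tested. Leukocyte markers also differed between the fractions, with sums of 3834 and 4056 TPM in c-Kit and 12717 and 13261 TPM in DBA samples, as did proximal tubule markers (1140 and 1264 TPM against 2400 and 2493 TPM), parietal epithelial markers (141 and 146 TPM against 285 and 323 TPM) and mural and fibroblast markers (182 and 219 TPM against 304 and 307 TPM); their part in the 5 genes that were lower in c-Kit was not tested. In the leukocyte-rich non-epithelial single cells Notch2 had a median of 45.1 TPM, and in proximal tubule cells one of 24.9 TPM, as given above.

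**Figure D3:**
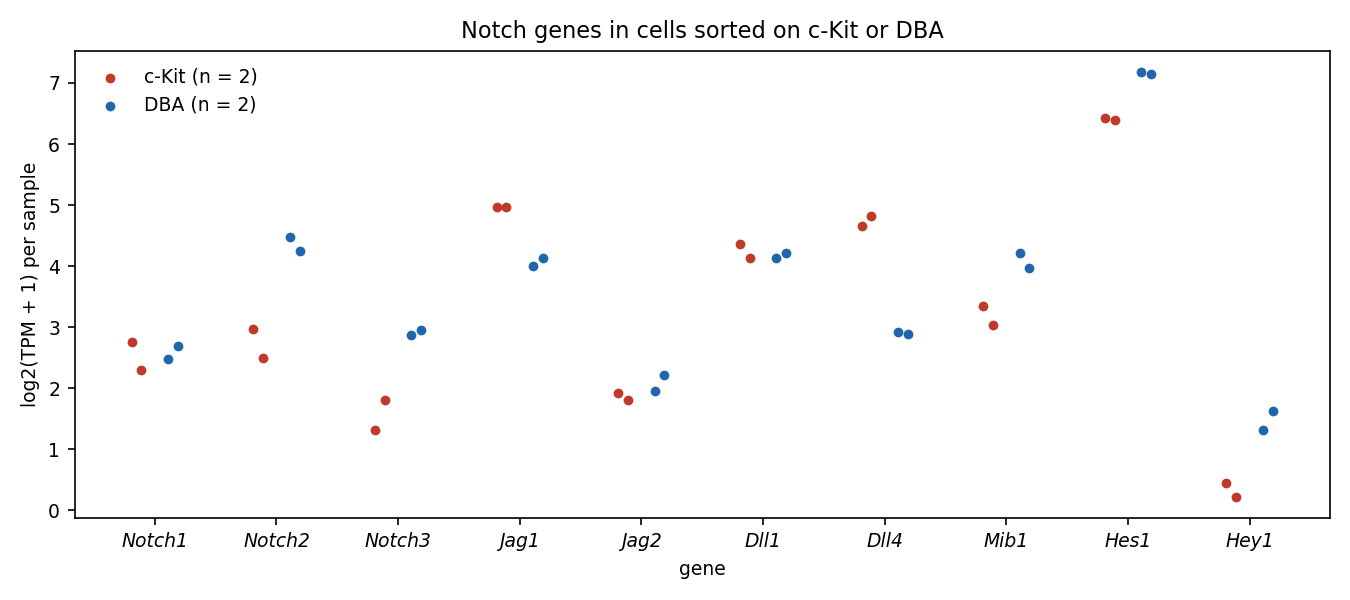
Level of the 10 Notch genes in the 2 c-Kit and 2 DBA samples, as log2(TPM + 1), 1 point per sample. The receptor genes Notch2 and Notch3, Mib1, Hes1 and Hey1 are lower and Jag1 and Dll4 higher in both c-Kit samples, whereas Notch1 and Dll1 overlap.

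Of the 10 Notch genes, 2 were called higher and 5 lower in c-Kit, against 44.3% of all 14341 genes tested that were called by limma in either direction (16.1% higher and 28.1% lower). Hey1 is among the 5, although it passed the filter through the DBA samples alone. The median difference was -0.49 over the 10 genes and -0.11 over all genes. With quantile normalization the split of all calls moved from 2315 higher and 4033 lower to 3055 higher and 3072 lower and the median of all genes to 0.02; the 7 calls held, with differences from -1.40 (Notch2) to 2.05 (Dll4). Of the 46 other pathway genes, 40 could be tested, 4 were called higher and 16 lower, with a median of -0.32. Those lowest in c-Kit were Heyl, a target gene (2.93 and 3.42 TPM against 21.3 and 19.0 TPM, difference -2.34), Neurl1a, a ubiquitin ligase gene (-2.08), and Nrarp, a target gene whose product limits the signal (10.4 and 10.1 TPM against 45.0 and 38.0 TPM, -1.91). Those highest were Neurl1b, also a ubiquitin ligase gene (0.57), and the gamma-secretase subunit genes Aph1b (0.31) and Ncstn (0.27). These 3 calls depended on the setting: Neurl1b kept its call in 6 of 10 alternatives, Aph1b in 3 of 11 and Ncstn in 8 of 11.

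The GFP comparison sets GFP-positive against GFP-negative kidney cells of the strain Atp6v1b1GFP, so its control differs from that of the c-Kit comparison. Intercalated markers shared by both types summed to 1099 and 1762 RPKM in GFP-positive and 15.6 and 19.8 RPKM in GFP-negative samples, while thick ascending limb markers were high in both groups (2231 and 3891 RPKM against 2368 and 2624 RPKM). Principal cell markers were also higher in GFP-positive samples, at 714 and 1270 RPKM against 168 and 202 RPKM, and edgeR called all 6 higher, among them the water channel gene Aqp2 (2.21) and the sodium channel gene Scnn1g (3.41). Proximal tubule markers were lower, at 150 and 301 RPKM against 1568 and 1714 RPKM, and all 5 were called lower, among them the endocytic receptor gene Lrp2 (-2.73). The part of principal and proximal tubule cells in the values of Jag1, Notch2, Nrarp and the other genes below was not tested. Reads assigned to genes numbered 35530885 to 40815091 a sample. Levels are given as CPM, counts per 1000000 reads after scaling, which are not corrected for gene length and are compared only within a gene.

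Jag1 was at 159 and 124 CPM in GFP-positive and 50.2 and 45.5 CPM in GFP-negative samples, higher by 1.56 on the log2 scale (SE 0.19, edgeR adjusted p = 0.000418), and it kept its call in all alternatives run. Notch3, at 16.3 and 10.3 CPM against 5.27 and 6.35 CPM, was higher by 1.20 (SE 0.34, edgeR adjusted p = 0.0258), but edgeR did not call it without the first GFP-negative (1.06) or the first GFP-positive sample (0.80), nor did limma on RPKM (0.66). No other Notch gene passed the test, so 2 of 10 were called, both higher, against 32.6% of the 15671 genes tested (15.2% higher, 17.3% lower). The median difference was 0.31 over the 10 and 0.02 over all genes.

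Notch2 did not pass here. It was at 130 and 113 CPM in GFP-positive and 166 and 147 CPM in GFP-negative samples, a difference of -0.37 (SE 0.17, edgeR adjusted p = 0.134). The groups did not overlap in CPM. In the authors' RPKM values they did, at 15.5 and 10.3 RPKM in GFP-positive and 15.2 and 16.8 RPKM in GFP-negative samples. Notch1 was at 41.0 and 48.7 CPM against 39.3 and 22.9 CPM (0.53, SE 0.27), but the authors' RPKM values put it the other way, at 2.21 and 3.04 RPKM in GFP-positive and 5.84 and 3.19 RPKM in GFP-negative samples (-0.57). The direction for Notch1 thus depends on which deposited table is read.

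Among the other ligand genes, Dll1 was at 9.11 and 7.12 CPM against 4.97 and 3.89 CPM (0.87, SE 0.36, edgeR adjusted p = 0.0965), Jag2 at 2.07 and 2.93 CPM against 4.52 and 4.21 CPM (-0.80, SE 0.46), and Dll4 at 6.82 and 6.94 CPM against 9.35 and 4.94 CPM (-0.06, SE 0.39). Hes1 was at 39.7 and 60.2 CPM against 38.7 and 35.7 CPM (0.42, SE 0.24), Mib1 at 97.3 and 75.4 CPM against 77.4 and 74.1 CPM (0.19, SE 0.18), and Hey1 at 1.16 and 1.69 CPM against 3.96 and 2.93 CPM (-1.27, SE 0.55). Notch1, Notch4 and Dll4 are also known as genes of endothelial cells. Endothelial markers summed to 21.2 and 45.6 RPKM in GFP-positive and 80.0 and 181 RPKM in GFP-negative samples, and leukocyte markers to 50.1 and 70.2 RPKM against 292 and 784 RPKM; their part in these values was not tested.

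Of the other pathway genes, 41 were tested, 8 were called higher and 4 lower in GFP-positive samples, with a median of 0.22. Among all 15671 genes tested, edgeR called 15.2% higher and 17.3% lower, with a median of 0.02. Nrarp, at 3.68 and 4.06 CPM against 0.59 and 0.64 CPM, was higher by 2.65 (SE 0.57, edgeR adjusted p = 0.00824), Dtx1, a ubiquitin ligase gene that acts on the receptor, by 2.56 and Maml3, a coactivator gene, by 2.17. Lower were Mfng, a glycosyltransferase gene that modifies the receptor (-3.24), Notch4, the fourth receptor gene (-2.21), and Dtx4 (-1.51). Nrarp, Maml3, Notch4 and Dtx4 were not called by limma on RPKM. Nrarp and Dtx4 were also lost without the second GFP-positive sample, and Dtx1 was lost without the second GFP-negative or either GFP-positive sample. Nrarp therefore stood higher in GFP-positive than in GFP-negative samples and lower in c-Kit than in DBA samples, 2 comparisons with different controls.

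**Figure D4:**
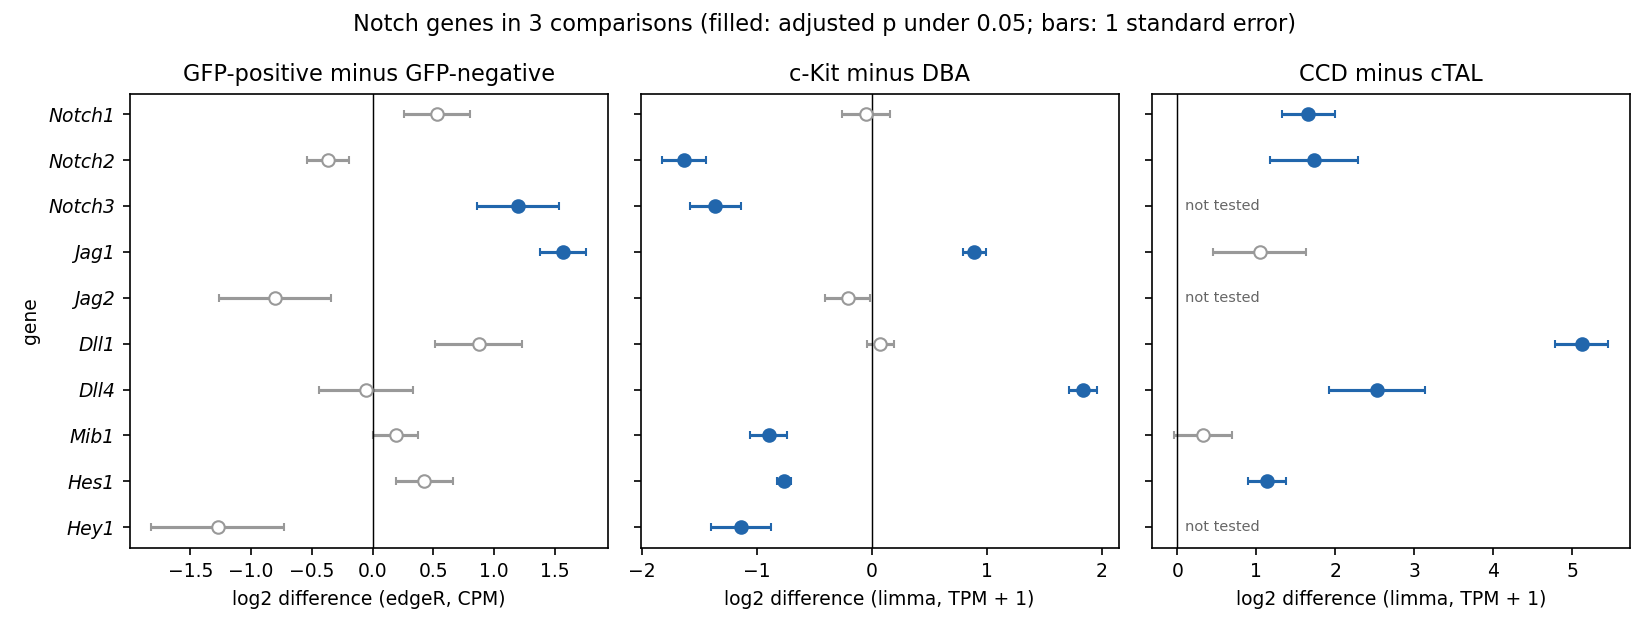
Difference of each Notch gene on the log2 scale in the 3 replicated comparisons, with 1 standard error on each side; filled points passed an adjusted p of 0.05 and open points did not. Jag1 is to the right in all 3 panels, Notch2 to the left in the first 2 and to the right in CCD against cTAL, and Dll1 stands farthest to the right in CCD against cTAL.

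In dissected tubules the largest difference among the Notch genes was that of Dll1. In the 11 CCD it ran from 15.2 to 67.5 TPM with a median of 46.0 TPM (43.6 ± 14.0 TPM, SD, n = 11), and in the 8 cTAL from 0.01 to 1.70 TPM with a median of 0.08 TPM (0.28 ± 0.58 TPM, SD, n = 8). Every CCD was above every cTAL, and the difference on the log2(TPM + 1) scale was 5.12 (SE 0.33, limma adjusted p = 3.28e-11). Dll4 ran from 0 to 32.4 TPM in CCD (median 11.2 TPM) and from 0 to 5.35 TPM in cTAL (median 0.10 TPM), higher in CCD by 2.53 (SE 0.61, limma adjusted p = 0.00413), with overlap through 1 CCD at 0 and another at 5.02 TPM.

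The Jagged genes did not separate the segments by this test. Jag1 ran from 0.11 to 26.6 TPM in CCD (median 13.0 TPM) and from 0.04 to 12.2 TPM in cTAL (median 7.65 TPM), a difference of 1.04 (SE 0.59, limma adjusted p = 0.251). The CCD at 0.11 TPM is the tubule with prefix m2 in its name, which had the fewest genes (7621, against 10323 to 14004 in the other CCD) and the lowest median correlation with its group (0.67, next 0.82). Without it Jag1 was higher in CCD by 1.39 (limma adjusted p = 0.0364). Jag2 reached 1 TPM in 1 of 11 CCD and 2 of 8 cTAL and was below the filter of a mean of 1 TPM, so it was not tested.

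Of the receptor genes, Notch1 ran from 0.55 to 7.13 TPM in CCD (median 2.93 TPM) and from 0 to 0.86 TPM in cTAL (median 0.14 TPM), higher in CCD by 1.66 (SE 0.34, limma adjusted p = 0.000864). The groups overlap through the m2 tubule at 0.55 TPM. With quantile normalization the difference was 0.98 and limma did not call it (adjusted p = 0.0704). Notch2 ran from 0.21 to 17.5 TPM in CCD (median 8.69 TPM) and from 0 to 7.24 TPM in cTAL (median 1.89 TPM), higher by 1.73 (SE 0.55, limma adjusted p = 0.0302). This call was lost in 7 of the 19 fits that left out 1 tubule, with a limma adjusted p between 0.0522 and 0.0681, though the difference stayed between 1.54 and 2.01. The 7 were those without the cTAL m1, m2, m4 or the first m6, or without the CCD m5 or either m4. Notch3 reached 1 TPM in 5 of 11 CCD and no cTAL and fell below the filter.

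Hes1 ran from 106 to 303 TPM in CCD (median 136 TPM) and from 36.0 to 114 TPM in cTAL (median 80.9 TPM), higher in CCD by 1.14 (SE 0.24, limma adjusted p = 0.00106). The highest Hes1 value was in the m2 tubule; the difference lay between 1.00 and 1.24 over all fits that left out 1 tubule, and limma called it in each. Mib1 ran from 2.98 to 39.1 TPM in CCD (median 16.0 TPM) and from 4.56 to 18.9 TPM in cTAL (median 12.2 TPM), a difference of 0.32 (SE 0.37, limma adjusted p = 0.609) that was -0.11 with quantile normalization. Hey1 was at 0 in 8 of 11 CCD and 7 of 8 cTAL.

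**Figure D5:**
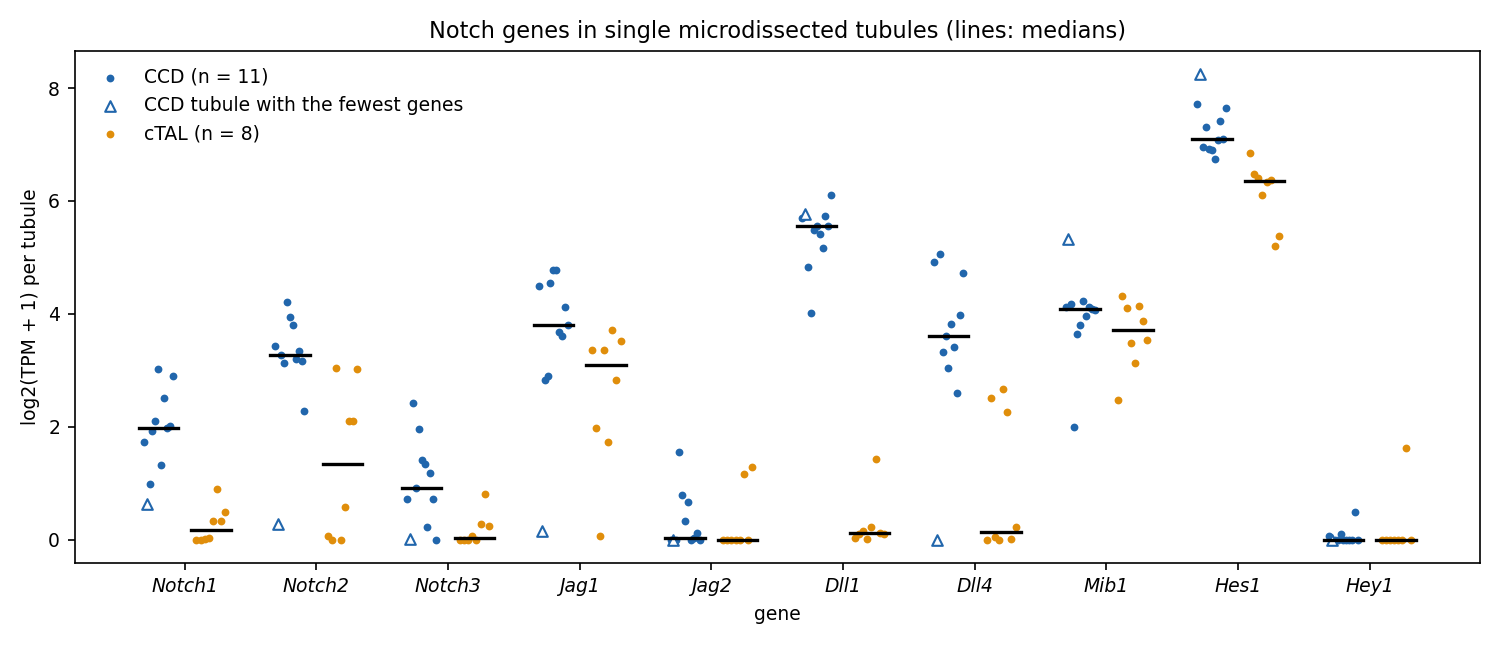
Level of the 10 Notch genes in each of 11 CCD and 8 cTAL tubules, as log2(TPM + 1), with medians as lines; the open triangle is the CCD tubule with the fewest genes. Dll1 alone among the 10 shows no overlap between the segments, and the triangle lies at the bottom of its group for Notch1, Notch2, Jag1 and Dll4 and at the top for Mib1 and Hes1.

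Of the 7 Notch genes tested in tubules, 5 were called higher in CCD and none lower, against 18.7% of the 13520 genes tested that were called in either direction (13.2% higher and 5.5% lower). Dll1 and Notch1, with cTAL means of 0.28 and 0.23 TPM, passed the filter of a mean of 1 TPM through the CCD alone. These 2 genes could therefore enter the count and the median only as higher in CCD. The median difference was 1.66 over the 7 and 0.31 over all genes. With quantile normalization the split of all calls moved from 1782 higher and 744 lower to 1221 higher and 1244 lower, and the median of all genes to -0.03. Endothelial markers summed to 105 to 660 TPM in CCD and 46.5 to 344 TPM in cTAL, parietal epithelial markers to 74.3 to 203 TPM against 18.3 to 92.1 TPM, and mural and fibroblast markers to 33.8 to 117 TPM against 0.16 to 64.6 TPM; their part in the differences was not tested.

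Of the 46 other pathway genes, 37 were tested in tubules and 4 were called, all higher in CCD. Among all 13520 genes tested, limma called 13.2% higher and 5.5% lower. Nrarp ran from 3.19 to 81.2 TPM in CCD and from 0 to 2.52 TPM in cTAL, higher by 4.19 (SE 0.45, limma adjusted p = 2.05e-07). Heyl ran from 4.29 to 21.3 TPM in CCD and from 0 to 0.69 TPM in cTAL, higher by 3.35 (SE 0.34, limma adjusted p = 6.46e-08). For both target genes every CCD was above every cTAL. With cTAL means of 0.33 TPM (Nrarp) and 0.10 TPM (Heyl), both passed the filter through the CCD alone and could be called only as higher there. The same holds for the called gene not named here, with a cTAL mean of 0.079 TPM. Neurl3, a ubiquitin ligase gene, was higher by 2.38 (limma adjusted p = 0.00715) but was not called among tubules with at least 10000 genes.

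Set beside each other on the TPM scale, the tables rank the Notch genes differently. Dll1 had a median of 46.0 TPM in CCD tubules and 16.6 to 19.6 TPM in the sorted bulk samples, yet it was detected in 9 single cells (3.83% of all), all of them principal or intercalated. Heyl, at 4.29 to 21.3 TPM in CCD, was detected in 7 of 74 principal cells and in 1 cell each of the type A, type B and proximal tubule cells. Notch2, by contrast, was at a median of 58.9 TPM in principal cells, 18.0 and 21.3 TPM in DBA samples and 8.69 TPM in CCD tubules. The tables were made separately, so these levels are set side by side and not tested.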

How the data were processed

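All values come from deposited tables, without a return to the reads. The authors' TPM values covered single cells, c-Kit and DBA samples and tubules; for the tubules the unit was read from column sums. STAR 2.5.1b, RSEM 1.2.31, Seurat and the build GRCm38.p5 are named, without roles, per the submitters' processing notes. For the GFP samples, HTSeq-count read counts and RPKM values on mm10 RefSeq genes were deposited, per the file names. Rows that name no gene held 66.7% to 72.8% of reads and stayed out of library sizes. No source used here gives the strand mode, which leaves values of overlapping and antisense genes uncertain. No per-sample column was left unused (0).

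GFP counts were tested with edgeR 4.0.16 (TMM, filterByExpr, quasi-likelihood test). The other comparisons used limma 3.58.1 with a variance trend on log2(TPM + 1), keeping genes whose mean reached 1 TPM. Fold changes on that scale understate the change of low genes. P-values were Benjamini-Hochberg adjusted over all genes tested and called under 0.05. The scripts were tested on simulated data. The 10 genes, the list of 46, the markers and the rules were chosen with earlier results of these data known. Named were all 10 genes, at most 3 called list genes per direction and comparison, and in single cells the 3 list genes with the largest log2 ratio of highest to second highest type mean. Alternatives were DESeq2 1.42.0, other scalings, filters, pseudocounts and thresholds, RPKM, a replicate block and leaving out each sample. TPM keeps no depth, so a limit in reads is not known.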

Additional observations from a re-analysis of the deposited data

Results flagged for a closer look

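Among the 8 cTAL tubules, a single value stood apart from the other seven by more than 0.526 of the group's range (Dixon's 95% critical value for 8 samples) in 5 of 13 genes looked at, the 10 Notch genes and 3 named pathway genes. Chance flags about 5% of groups of normally distributed values, a rate that does not apply to these 5 genes: each had most of its cTAL values at or near 0, where any single higher value is picked out, so their number is not read against that rate. Dll1 was at 1.70 TPM in the second cTAL of prefix m6, with the next at 0.17 TPM. Nrarp was at 2.52 TPM in the same tubule, with the next at 0.04 TPM. Hey1 was at 2.06 TPM in the first cTAL of prefix m7 and at 0 in all others, and Notch3 was at 0.75 TPM in that tubule, with the next at 0.21 TPM. Heyl was at 0.69 TPM in the cTAL of prefix m2, with the next at 0.03 TPM.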

How the results depend on the processing

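The count of genes called between GFP samples fell from 5101 to 1639 with limma on RPKM and 2157 with RPKM and a replicate block; that between c-Kit and DBA ran from 3458 to 5701 when 1 sample was left out, the lowest 2 without a DBA sample, against 6348; that between CCD and cTAL rose from 2526 to 4401 with sample weights. Leaving out 1 sample gave 3616 to 4211 calls for GFP and 2239 to 3078 for the tubules. With the replicate number as a block the counts were 5897 for GFP, 6271 for c-Kit against DBA and 2588 for the tubules (column prefix). Same-numbered samples had correlations of 0.19 (GFP), 0.03 (c-Kit and DBA) and 0.02 to 0.16 (tubule prefixes), so the numbers were not taken to pair them. Of 414 recomputed differences of the Notch genes, 381 kept direction and call, 16 lost and 4 gained a call and 13 reversed, none of the 13 from a called value. With limma on RPKM, blocked or not, Notch1 (-0.57) and Mib1 (-0.17) reversed between GFP samples, as did Dll4 with the replicate block (0.012). When 1 sample was left out, Dll4 ran from -0.44 to 0.47 and Mib1 from -0.033 to 0.37 between GFP samples, and Notch1 from -0.28 to 0.18 and Dll1 from -0.042 to 0.19 between c-Kit and DBA. With quantile normalization Notch1 (0.20) and Jag2 (0.037) reversed in c-Kit against DBA and Mib1 (-0.11) in CCD against cTAL. Hes1 was called higher in GFP-positive samples with RPKM and the block (1.14), and Notch1 without the first GFP-negative sample (0.96). Notch2 in CCD against cTAL was also lost without a filter and with means per prefix (1.80). The share of principal cells with both Notch2 and Jag1 was 93.2% counting any value above 0; for type A cells it was 98.9% above 0 and 6.90% at 10 TPM. The cause of these shifts was not tested. RPKM, prefix and marker alternatives that were added (RPKM with a block, prefix block, prefix means, tubules with at least 10000 genes, cells by marker sum) were chosen after seeing the data.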
